A study of Mus musculus with 10 samples.

Results

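The genes described are 47 members of the lysosomal system, taken by symbol from a table of read counts for 22165 genes. They are 11 cathepsins, 13 other hydrolases and soluble lysosomal proteins, 4 lysosomal membrane proteins, 15 subunits of the vacuolar proton pump, the 3 transcription factors Tfeb, Tfe3 and Mitf, and the autophagy receptor Sqstm1. All 47 were found in the table, each as a single row. Of these, 46 had enough reads to be tested, and Ctsk, with 0 to 3 reads in each library, did not.

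The RNA came from macrophages of the mouse peritoneal cavity, in C57BL/6 mice. All of the mice carried floxed (fl/fl) alleles of the targeted gene, although another label calls the controls only WT. The mice labelled knockout (KO) carried LysM-Cre as well. This Cre recombinase is expressed from the lysozyme locus Lyz2 in myeloid cells, so the genotype comparison is also one of mice with and without Cre. Mice received an intraperitoneal injection of saline (labelled Basal) or of the cytokine IL-4 bound to an antibody against it, which prolongs its action. The cavity was washed out 36 hours later, and cells were stained for CD64, ICAM-2 and CD115 and sorted. There were 2 wild-type saline, 3 wild-type IL-4, 2 knockout saline and 3 knockout IL-4 libraries of polyA RNA. Age and sex are not given in the sources used here. Nothing there says whether libraries of a group came from separate animals, so the p-values measure only the spread between these samples, which may be technical.

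Lysosomes break down material that a macrophage engulfs or takes from its own cytoplasm. Cathepsins cut proteins, other hydrolases remove sugars and lipids, and the vacuolar ATPase pumps protons across the lysosomal membrane to give the acid pH at which these enzymes work. The ATPase has a cytosolic V1 sector that hydrolyses ATP and a membrane V0 sector that carries the protons. TFEB, TFE3 and MITF are related transcription factors that bind an E-box sequence, CACGTG, in the promoters of many lysosomal genes (the CLEAR element).

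Library totals ranged from 8762403 to 15024073 reads. Levels below are CPM, the counts of a gene scaled to a common library size, after TMM scaling, which adjusts for a few abundant genes taking up reads. Lyz2, the locus that carries Cre, lay between 21900 and 23600 CPM in wild-type saline, 5910 and 7050 in wild-type IL-4, 2660 and 9680 in knockout saline, and 2850 and 4100 in knockout IL-4. The gate's own markers were present in all libraries: Icam2 lay between 275 and 1150 CPM, Csf1r, which encodes CD115, between 248 and 368 CPM, and Fcgr1, which encodes CD64, between 7.99 and 37.5 CPM. By edgeR's quasi-likelihood test, Fcgr1 was lower after IL-4 in wild type (log2 -1.78 ± 0.29 SE, adjusted p = 0.00221) and knockout (log2 -1.29 ± 0.29, adjusted p = 0.0128). Icam2 was lower after IL-4 in wild type (log2 -1.27 ± 0.30, adjusted p = 0.0214) and did not pass in knockout (log2 -0.68 ± 0.30, adjusted p = 0.196). Csf1r passed in neither genotype. The 9 B cell markers measured summed to 129 to 218 CPM in wild-type saline, 356 to 409 in wild-type IL-4, 1090 to 1390 in knockout saline and 323 to 450 in knockout IL-4. The 8 mast cell markers summed to 82.5 to 132, 37.2 to 50.4, 186 to 313 and 35.7 to 44.1 CPM in the same order. The knockout saline libraries were thus the highest of the 4 groups for both marker lists. They were also highest for eosinophil markers (35.7 to 46.0 CPM, at most 17.6 elsewhere) and erythroid markers (11.4 to 23.5 CPM, at most 4.34 elsewhere). Neutrophil markers were highest in wild-type saline (252 to 351 CPM). T and NK cell markers overlapped between the 2 saline groups. The 10 markers of small macrophages, monocytes and dendritic cells summed to 362 to 712 CPM in wild-type saline, 2180 to 2610 in wild-type IL-4, 1260 to 1620 in knockout saline and 1820 to 1860 in knockout IL-4. The part of such cells in the results below was not tested.

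Few members passed the test in each comparison, and few of all genes did. The test was edgeR's quasi-likelihood test, with a Benjamini-Hochberg adjusted p under 0.05 over the 11614 genes tested. With 2 or 3 libraries in a group, a member that did not pass is not shown to be unchanged. Knockout against wild type after IL-4, 1 of 46 members passed (2.17%), where 0.827% of all genes did (0.353% higher and 0.474% lower), and the 1 was higher. After saline, 1 of 46 passed (2.17%) and was lower, against 4.14% of all genes (2.61% higher and 1.53% lower). IL-4 against saline, 2 of 46 passed in wild type (4.35%), both higher, against 6.06% of all genes (3.26% higher and 2.8% lower). In knockout, 4 of 46 passed (8.7%), 3 higher and 1 lower, against 7.6% of all genes (4.09% higher and 3.51% lower). For the interaction, which subtracts the wild-type response to IL-4 from that of knockout, 1 of 46 passed (2.17%) and was positive, against 2.81% of all genes (1.02% positive and 1.78% negative). These calls concerned 5 genes: the cathepsin Ctse, the lipase Lipa, the glycosidases Gla and Neu1, and the pump subunit Atp6v1a.

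The members as a whole were centred close to the rest of the transcriptome. Their median log2 difference between knockout and wild type was -0.12 after IL-4, where all genes had 0.02, and 0.04 after saline, where all genes had -0.02. The median IL-4 effect was 0.12 in wild type and 0.02 in knockout, beside medians of all genes that rounded to 0.00. The median of the interaction was -0.13, beside 0.01 for all genes. At an unadjusted p under 0.05, there were 4 members between genotypes after IL-4 (8.7%, beside 14.4% of all genes) and 9 after saline (19.6%, beside 17.7%). For IL-4 there were 7 in wild type (15.2%, beside 21.3%) and 12 in knockout (26.1%, beside 22.7%), and for the interaction 7 (15.2%, beside 15.3%). The fitted IL-4 effect had the same sign in both genotypes for 29 of 46 members (63.0%) and for 59.2% of all genes. The SD of log2(CPM + 1) between libraries of a group had a median of 0.27 over the members, from 0.09 for Asah1 to 0.70 for Atp6v1e1, beside 0.34 over all genes. Statements below that libraries of groups do not overlap describe values only, as the share of all genes separated in this way was not counted.

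**Figure D1:**
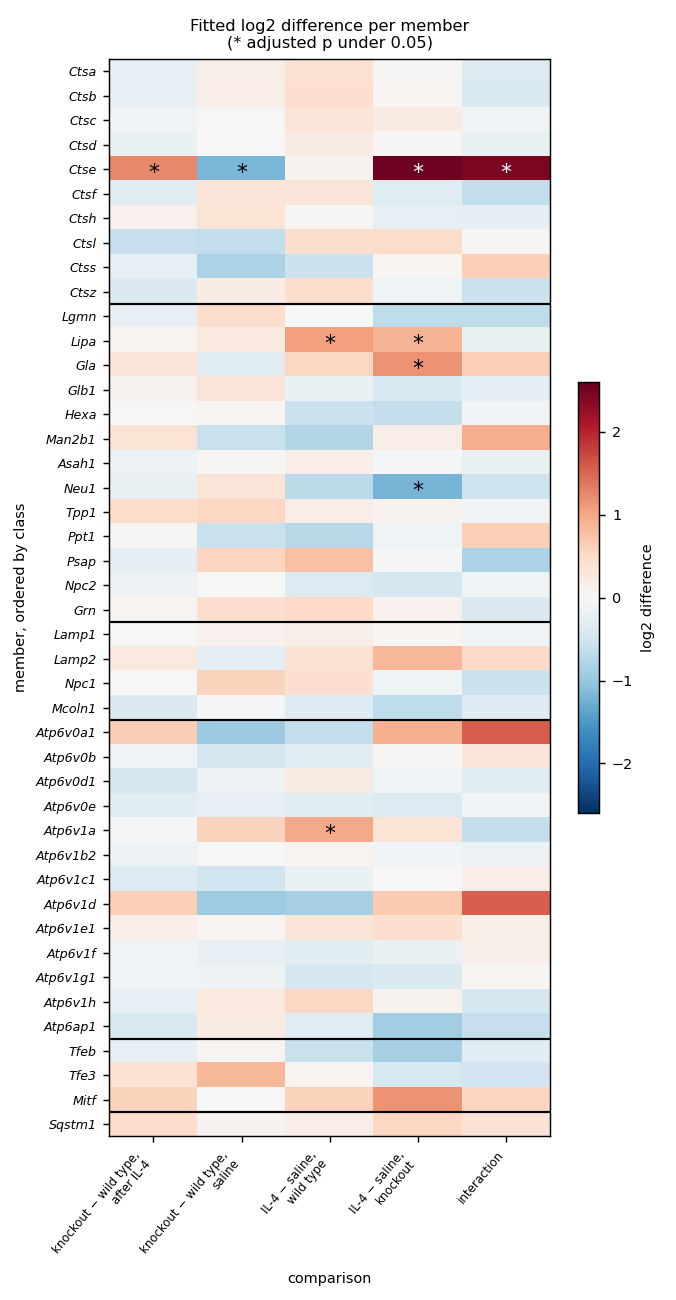
Fitted log2 difference of 44 members (rows, by class) in the 5 comparisons (columns), with red for positive, blue for negative and a star for an adjusted p under 0.05. Ctsk, which was not tested, and Atp6v0c and Atp6v0d2, which had few reads, are left out; only Ctse carries stars in 4 columns.

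Promoter letters are shown next, because members of this module are known targets of the E-box factors. The windows are RefSeq promoter windows on GRCm38.p6, from 250 bases before to 50 after a transcription start, which cover 37 of the 47 members with 47 windows. No window was used for Ctse. The core CACGTG stood in 13 of the 47 windows (27.7%), in 9.99% of the windows of genes tested and in 7.15% of all windows. The palindrome TCACGTGA, which contains the core, stood in 7 member windows (14.9%), in 1.86% of those of genes tested and in 0.974% of all. GTCACGTG or its reverse complement CACGTGAC, which also contains the core and can overlap the palindrome, stood in 9 member windows (19.1%), beside 4.16% and 2.25%. Both strands were searched. A match describes letters and does not show that a factor binds.

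Of the 5 genes that passed the test, 4 had a window. The 250 bases before its RefSeq start are given 5′ to 3′ on the strand of the gene, with any TCACGTGA and an adjoining G in capitals. That start can differ from the gene positions given below, which come from another annotation. All the printed bases of Atp6v1a and part of those of Gla lie inside the annotated gene. Gla holds 2 copies of the palindrome and Atp6v1a 1, while those of Lipa and Neu1 hold no CACGTG. The printed bases of Gla lie at chrX:134601006-134601255 on the minus strand, those of Atp6v1a at chr16:44139260-44139509 (minus), those of Lipa at chr19:34527475-34527724 (minus) and those of Neu1 at chr17:34931003-34931252 (plus).
Gla: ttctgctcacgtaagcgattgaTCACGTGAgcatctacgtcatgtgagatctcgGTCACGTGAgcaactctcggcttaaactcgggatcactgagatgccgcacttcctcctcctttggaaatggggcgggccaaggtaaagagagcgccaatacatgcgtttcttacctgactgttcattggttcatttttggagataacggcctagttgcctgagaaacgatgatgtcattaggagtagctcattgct
Atp6v1a: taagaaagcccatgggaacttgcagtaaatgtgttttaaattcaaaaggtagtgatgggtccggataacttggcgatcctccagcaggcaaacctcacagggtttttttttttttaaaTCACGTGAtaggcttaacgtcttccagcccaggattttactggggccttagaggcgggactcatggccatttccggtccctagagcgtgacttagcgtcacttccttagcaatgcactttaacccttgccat
Lipa: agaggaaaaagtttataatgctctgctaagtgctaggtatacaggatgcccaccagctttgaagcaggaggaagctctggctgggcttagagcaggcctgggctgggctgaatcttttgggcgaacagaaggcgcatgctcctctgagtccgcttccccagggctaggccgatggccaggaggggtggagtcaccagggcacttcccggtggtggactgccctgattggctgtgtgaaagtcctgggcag
Neu1: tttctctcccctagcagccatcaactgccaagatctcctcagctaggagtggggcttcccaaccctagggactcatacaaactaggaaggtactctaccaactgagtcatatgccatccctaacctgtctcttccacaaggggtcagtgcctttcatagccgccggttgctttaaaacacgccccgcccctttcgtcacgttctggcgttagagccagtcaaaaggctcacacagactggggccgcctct

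The other member windows with the palindrome belong to 2 cathepsins, the membrane channel Mcoln1 and 2 subunits of the V0 sector. The sites are given with their flanks because they carry the same letters as Gla and Atp6v1a, although none of these 5 genes passed the test in any comparison. Capitals mark the motif and an adjoining G or C. The windows are chr2:164833523-164833822 (plus) for Ctsa, chr7:142387778-142388077 (minus) for Ctsd, chr8:3500269-3500568 (plus) for Mcoln1, chr8:105566015-105566314 (minus) for Atp6v0d1 and chr17:26676146-26676445 (plus) for Atp6v0e. Those of Ctsa and Atp6v0e lie wholly inside the annotated gene, and those of Ctsd, Mcoln1 and Atp6v0d1 lie partly inside it. The printed sites of Ctsd and Mcoln1 are within the annotated gene. Another window of Ctsa, at chr2:164832622-164832921 (plus), holds no CACGTG.
Ctsa, site 9 bases before the start: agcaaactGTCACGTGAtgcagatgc
Ctsa, site 8 bases after the start: tgcagatgcTCACGTGACcagagcta
Ctsd: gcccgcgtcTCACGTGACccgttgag
Mcoln1: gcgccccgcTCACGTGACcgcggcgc
Atp6v0d1: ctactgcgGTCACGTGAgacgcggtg
Atp6v0e: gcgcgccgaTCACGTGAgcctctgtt

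**Figure D2:**
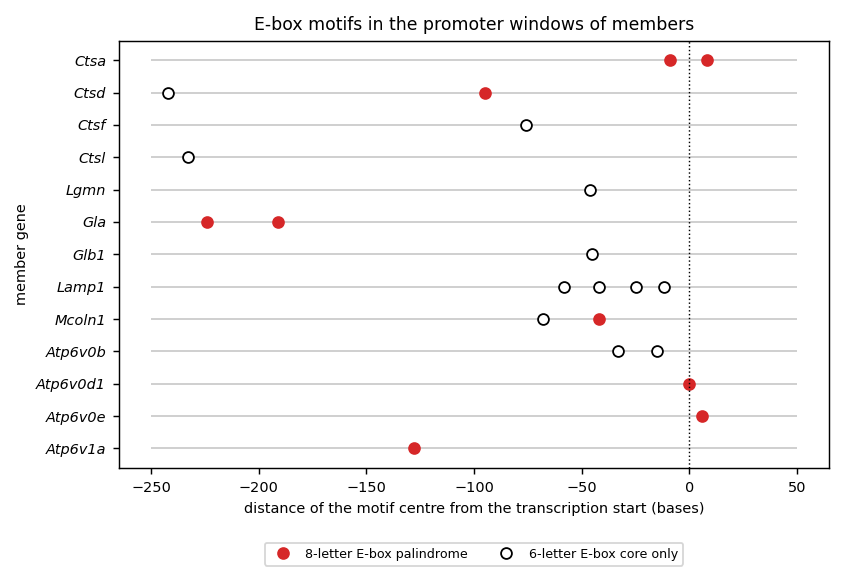
Distance in bases from the RefSeq transcription start of the window (x axis) of each CACGTG core in the windows of the 13 members that hold it (y axis). Filled points mark the 8-letter palindrome TCACGTGA and open points the core alone; the sites of Gla lie at -224 and -191 and that of Atp6v1a at -128.

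Among the cathepsins, Ctse was the 1 gene of 10 tested that passed, and it did so in 4 of the 5 comparisons. Ctse encodes cathepsin E, an aspartic protease of endosomes that is found in antigen-presenting cells, lymphocytes and gastric epithelium. The gene (ENSMUSG00000004552) lies at chr1:131638306-131675505 on the plus strand of mm10. Its level was 65.9 and 44.6 CPM in wild-type saline, 56.3, 58.3 and 62.7 in wild-type IL-4, 19.6 and 28.5 in knockout saline, and 124, 179 and 115 in knockout IL-4. Both knockout saline libraries lay below all wild-type libraries, and all 3 knockout IL-4 libraries lay above them. The group means were 55.3 ± 15.1 (SD, n = 2), 59.1 ± 3.29 (SD, n = 3), 24.1 ± 6.34 (SD, n = 2) and 140 ± 34.6 CPM (SD, n = 3).

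The genotype difference in Ctse had opposite signs without and with IL-4. After saline it was 2.29-fold lower in knockout (log2 -1.20 ± 0.30 SE, adjusted p = 0.0360), and after IL-4 it was 2.37-fold higher (log2 1.24 ± 0.24, adjusted p = 0.0228). IL-4 raised it 5.8-fold in knockout (log2 2.54 ± 0.30, adjusted p = 1.04e-04), while in wild type the difference was 0.10 ± 0.27 (adjusted p = 0.881). The 2 IL-4 effects differed by 2.44 ± 0.39 on the log2 scale (adjusted p = 0.00277). These last 2 calls, the IL-4 effect in knockout and the interaction, held in every alternative fit, with highest adjusted p of 0.00388 and 0.0221, both without knockout saline library 1. The genotype difference after IL-4 no longer passed when knockout IL-4 library 2 was left out (adjusted p = 0.0658), nor on leaving out wild-type IL-4 library 1 (0.137), 2 (0.0896) or 3 (0.101). After saline it lost its call without knockout saline library 1 (0.290) or 2 (0.0687), without wild-type saline library 1 (0.204), and without wild-type IL-4 library 1 (0.0558), 2 (0.0543) or 3 (0.0566), which enter only through the shared spread. With library totals in place of TMM its adjusted p was 0.0669, and from the saline groups alone it was 0.0737. The knockout saline libraries, lowest for Ctse, were the highest for B cell and mast cell markers, as given above, and the part of this in the Ctse values was not tested. In bulk RNA, fewer cells of a type and less RNA per cell cannot be told apart.

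**Figure D3:**
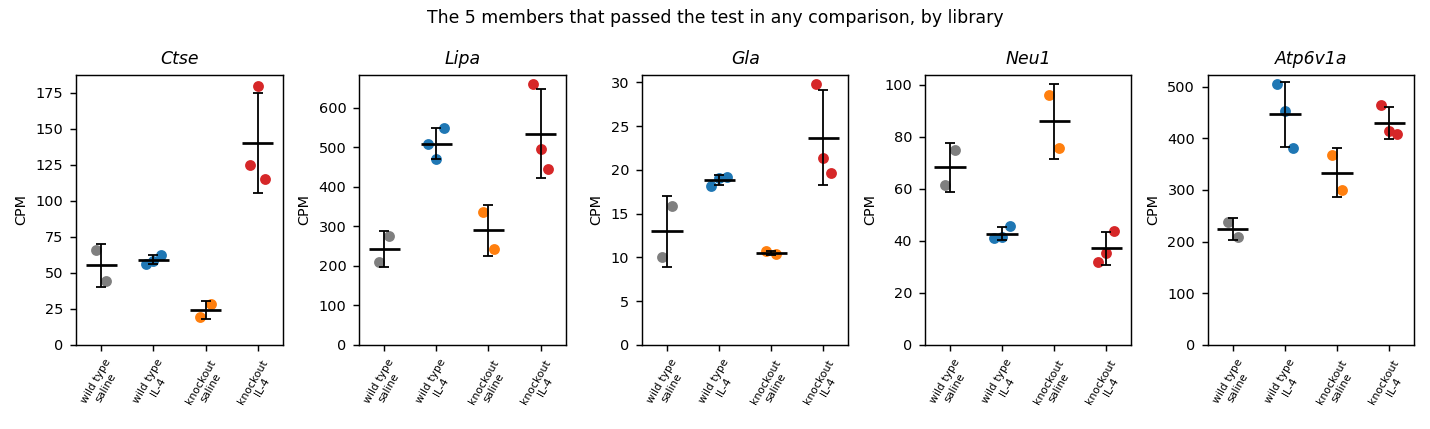
CPM (y axis, from 0) of the 5 members that passed the test in any comparison, with 1 point per library, the group mean as a line and the SD as bars. The 3 knockout IL-4 libraries are the highest for Ctse, and the 6 IL-4 libraries of Lipa and Gla lie above, and those of Neu1 below, all saline libraries of either genotype.

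The other 9 cathepsins tested did not pass in any comparison. Ctss, cathepsin S, which trims the invariant chain of MHC class II, was the most abundant cathepsin, both in CPM (1826 over the 10 libraries) and per kilobase of exon (1345 CPM per kb). It stood at 2495 and 2772 CPM in wild-type saline, 1229, 2939 and 1201 in wild-type IL-4, 1674 and 1303 in knockout saline, and 1108, 2043 and 1491 in knockout IL-4. Wild-type IL-4 library 2 lay above both saline libraries of its genotype and the other IL-4 libraries of wild type lay below them, so the groups overlapped (log2 -0.56 ± 0.35, adjusted p = 0.402). Both knockout saline libraries lay below both of wild type (log2 -0.82 ± 0.39, adjusted p = 0.2996), which did not pass.

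Ctsb, cathepsin B, a cysteine protease of broad range, was next in CPM, with 984 and 1162 CPM in wild-type saline, 1577, 1279 and 1489 in wild-type IL-4, 1358 and 1066 in knockout saline, and 1330, 1463 and 948 in knockout IL-4. All wild-type IL-4 libraries lay above the wild-type saline ones, by 0.43 ± 0.22 on the log2 scale, which did not pass (adjusted p = 0.285). In knockout the IL-4 and saline libraries overlapped, with a difference of 0.04 ± 0.22 (adjusted p = 0.942). Ctsd, cathepsin D, the main aspartic protease of lysosomes, had the second level per length (338 CPM per kb) and ranged over all libraries only from 685 to 1040 CPM. Of its exon bases, 34.4% overlap another annotated gene on the same strand, so its reads are uncertain.

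Ctsl, cathepsin L, was lower in all knockout libraries than in all wild-type libraries of the same treatment. It had 183 and 112 CPM in wild-type saline beside 82.4 and 108 in knockout saline, and 243, 180 and 180 in wild-type IL-4 beside 127, 151 and 118 in knockout IL-4. The 2 differences, -0.63 ± 0.28 after saline (adjusted p = 0.248) and -0.61 ± 0.23 after IL-4 (adjusted p = 0.239), did not pass. Of its exon bases, 26.8% overlap a gene on the other strand, and whether the counting used strand is not given in the sources used here. Among the rest, Ctsh, an aminopeptidase, ranged from 281 to 471 CPM, Ctsc, which activates granule proteases, from 300 to 547, Ctsa, a carboxypeptidase that protects neuraminidase 1, from 136 to 251, Ctsz, another carboxypeptidase, from 130 to 244, and Ctsf from 10.96 to 22.6. Over the 10 cathepsins tested, the median IL-4 effect was 0.33 in wild type, with 9 positive signs and 0 calls, and 0.03 in knockout, with 7 positive signs and 1 call.

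**Figure D4:**
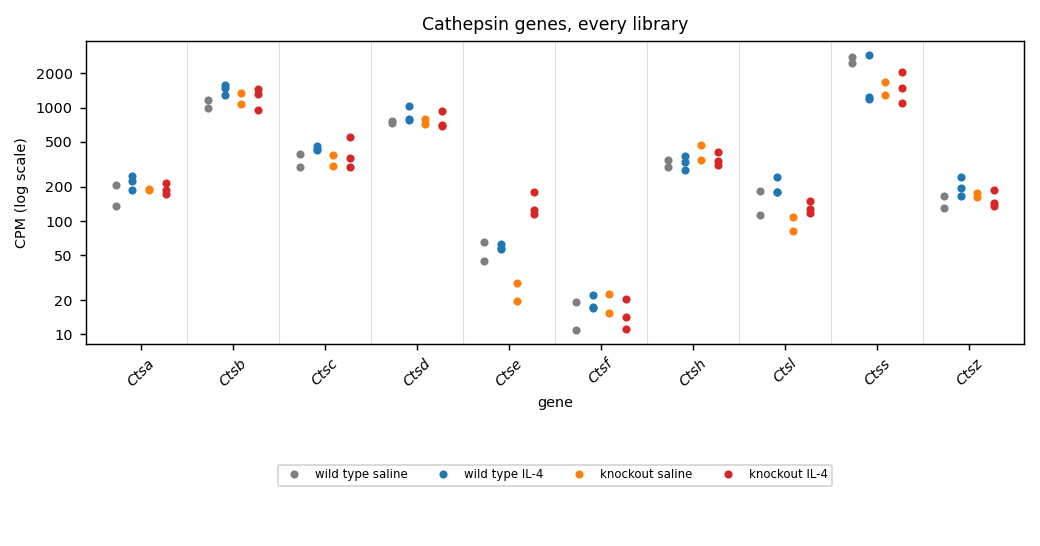
CPM on a log scale (y axis) of the 10 cathepsins tested (x axis), with 1 point per library coloured by group. Ctss and Ctsb are the highest in CPM and Ctsf the lowest; Ctse is the gene whose 2 knockout groups lie apart on either side of wild type.

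Among the 13 other hydrolases and soluble proteins, Lipa, Gla and Neu1 passed, all for IL-4 and none between genotypes. Lipa encodes lysosomal acid lipase, which frees cholesterol and fatty acids from lipoprotein lipids, and lies at chr19:34492318-34527474 (minus strand, ENSMUSG00000024781). It had 210 and 275 CPM in wild-type saline, 509, 471 and 548 in wild-type IL-4, 336 and 244 in knockout saline, and 661, 495 and 445 in knockout IL-4. Every IL-4 library was above every saline library, whatever the genotype. The rise was 2.1-fold in wild type (log2 1.07 ± 0.24, adjusted p = 0.0148) and 1.84-fold in knockout (log2 0.88 ± 0.24, adjusted p = 0.0321), and the difference between the 2 rises was -0.19 ± 0.32 (adjusted p = 0.848). Knockout differed from wild type by 0.07 ± 0.20 after IL-4 (adjusted p = 0.917) and by 0.26 ± 0.25 after saline (adjusted p = 0.665). The wild-type call was lost without wild-type saline library 1 (adjusted p = 0.118) or wild-type IL-4 library 3 (0.0524). The knockout call was lost without knockout saline library 1 (0.0652) or 2 (0.301), knockout IL-4 library 1 (0.0942) or wild-type IL-4 library 3 (0.0518), and from the knockout groups alone (0.0766).

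Gla encodes alpha-galactosidase A, which removes galactose from glycolipids, and lies at chrX:134588149-134601125 (minus strand, ENSMUSG00000031266). It was a low gene, with 10.1 and 15.8 CPM in wild-type saline, 18.2, 19.1 and 19.3 in wild-type IL-4, 10.7 and 10.4 in knockout saline, and 29.9, 21.4 and 19.7 in knockout IL-4. As with Lipa, all IL-4 libraries were above all saline libraries. The rise passed in knockout, at 2.24-fold (log2 1.16 ± 0.30, adjusted p = 0.0261), and was 0.54 ± 0.29 in wild type (adjusted p = 0.312). The interaction of 0.63 ± 0.41 did not pass (adjusted p = 0.503), so the rises were not shown to differ. Knockout differed from wild type by 0.33 ± 0.25 after IL-4 (adjusted p = 0.588) and by -0.30 ± 0.32 after saline (adjusted p = 0.695). The knockout call was lost without knockout saline library 1 (adjusted p = 0.144) or 2 (0.172) or knockout IL-4 library 1 (0.0762), and from the knockout groups alone (0.0521).

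Neu1 moved the other way. It encodes neuraminidase 1, which removes sialic acid from glycoproteins and glycolipids, and lies at chr17:34931253-34935953 (plus strand, ENSMUSG00000007038). It had 61.5 and 74.9 CPM in wild-type saline, 41.2, 41.3 and 45.5 in wild-type IL-4, 96.1 and 75.8 in knockout saline, and 31.8, 35.5 and 43.9 in knockout IL-4. All IL-4 libraries lay below all saline libraries. The fall passed in knockout, at 2.32-fold (log2 -1.21 ± 0.23, adjusted p = 0.00484), a call that was lost without knockout saline library 1 (adjusted p = 0.0813). In wild type the difference was -0.68 ± 0.23 (adjusted p = 0.101), and the interaction of -0.54 ± 0.34 did not pass (adjusted p = 0.488). Knockout differed from wild type by -0.20 ± 0.21 after IL-4 (adjusted p = 0.712) and by 0.33 ± 0.26 after saline (adjusted p = 0.563). Ctsa, whose product forms a complex with neuraminidase 1, lay between 173 and 214 CPM in knockout IL-4 and between 187 and 190 CPM in knockout saline.

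Psap encodes prosaposin, the precursor of the saposins that present lipids to hydrolases. It had 739 and 497 CPM in wild-type saline, 1282, 922 and 964 in wild-type IL-4, 854 and 957 in knockout saline, and 853, 1044 and 743 in knockout IL-4. All wild-type IL-4 libraries were above the wild-type saline ones (log2 0.77 ± 0.24, adjusted p = 0.0673, not past the threshold), and in knockout the groups overlapped (log2 -0.04 ± 0.23, adjusted p = 0.945). Its interaction, -0.81 ± 0.33, had the smallest p of these hydrolases and did not pass (adjusted p = 0.240). Grn, progranulin, which is cut into granulins in the lysosome, had 650 and 381 CPM in wild-type saline, 897, 586 and 690 in wild-type IL-4, 748 and 643 in knockout saline, and 757, 954 and 558 in knockout IL-4. Its groups overlapped in all 4 pairwise comparisons, with adjusted p from 0.336 for IL-4 in wild type to 0.939 between genotypes after IL-4.

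Tpp1, a tripeptidyl peptidase, had 427 and 415 CPM in wild-type saline, 574, 410 and 434 in wild-type IL-4, 514 and 713 in knockout saline, and 666, 517 and 770 in knockout IL-4. Knockout libraries were the higher after saline (log2 0.54 ± 0.25, adjusted p = 0.280) and overlapped with wild type after IL-4 (log2 0.46 ± 0.21, adjusted p = 0.324), and neither difference passed. Ppt1, a thioesterase that removes palmitate from proteins, had 184 and 192 CPM in wild-type saline, 93.3, 142 and 109 in wild-type IL-4, 136 and 118 in knockout saline, and 125, 115 and 113 in knockout IL-4. The 2 wild-type saline libraries were its highest. Neither its difference between genotypes after saline (log2 -0.57 ± 0.25, adjusted p = 0.234) nor that with IL-4 in wild type (log2 -0.72 ± 0.22, adjusted p = 0.0701) passed.

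The remaining 6 did not pass in any comparison. Hexa, a subunit of beta-hexosaminidase, was lower in all IL-4 libraries (256 to 357 CPM) than in all saline libraries (447 to 493 CPM). Npc2, a carrier of cholesterol in the lumen, likewise stood at 409 to 632 CPM after IL-4 and 662 to 718 CPM after saline. Lgmn, an asparaginyl endopeptidase, had 378 and 478 CPM in knockout saline, above the 252 to 300 CPM of knockout IL-4, while in wild type the groups overlapped. Man2b1, an alpha-mannosidase, spread from 256 to 615 CPM within knockout IL-4 alone. Glb1, beta-galactosidase, ranged from 117 to 212 CPM and Asah1, acid ceramidase, from 107 to 136 CPM.

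None of the 4 membrane proteins passed in any comparison. Lamp1 and Lamp2 are the main glycoproteins of the lysosomal membrane. Lamp2 had 918 and 1066 CPM in wild-type saline, 1137, 1133 and 1571 in wild-type IL-4, 991 and 679 in knockout saline, and 1797, 1789 and 985 in knockout IL-4. Knockout IL-4 library 3 lay among the saline libraries and the other knockout IL-4 libraries were the highest of all (log2 0.87 ± 0.28, adjusted p = 0.0688). Of the fits without 1 library, the difference passed only without library 3 (adjusted p = 0.0145), which drops the library that disagreed. Lamp1 ranged from 324 to 464 CPM over all libraries, and its groups overlapped in each pairwise comparison. Its values were 426 and 324 in wild-type saline, 464, 373 and 407 in wild-type IL-4, 431 and 377 in knockout saline, and 430, 454 and 367 in knockout IL-4.

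Npc1, the transporter that passes cholesterol out of the lysosome, was lowest in the wild-type saline libraries, with 85.6 and 82.0 CPM beside 108, 130 and 104 in wild-type IL-4, 122 and 127 in knockout saline, and 130, 105 and 108 in knockout IL-4. Its difference was 0.57 ± 0.24 between genotypes after saline (adjusted p = 0.214), 0.44 ± 0.22 for IL-4 in wild type (adjusted p = 0.257) and -0.56 ± 0.30 for the interaction (adjusted p = 0.404). Mcoln1, a calcium-releasing channel, was low in every library, with 10.9 and 11.6 CPM in wild-type saline, 9.56, 7.65 and 9.68 in wild-type IL-4, 14.6 and 7.25 in knockout saline, and 4.67, 8.22 and 7.69 in knockout IL-4. Its genotypes overlapped after IL-4 (log2 -0.38 ± 0.33, adjusted p = 0.643).

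Of the 15 pump subunits, Atp6v1a alone passed, for IL-4 in wild type. It encodes the catalytic A subunit of V1, where ATP is hydrolysed, and lies at chr16:44085402-44139705 (minus strand, ENSMUSG00000052459). It had 239 and 210 CPM in wild-type saline, 505, 452 and 381 in wild-type IL-4, 367 and 299.5 in knockout saline, and 465, 414 and 409 in knockout IL-4. The IL-4 libraries were above the saline libraries in both genotypes, and the knockout saline libraries lay between the wild-type saline and wild-type IL-4 libraries. The rise was 1.99-fold in wild type (log2 0.99 ± 0.21, adjusted p = 0.0112), and was lost without wild-type saline library 2 (adjusted p = 0.105). In knockout it was 0.37 ± 0.20 (adjusted p = 0.304), and the interaction of -0.63 ± 0.29 did not pass (adjusted p = 0.310). The genotypes differed by 0.57 ± 0.22 after saline (adjusted p = 0.182) and by -0.05 ± 0.18 after IL-4 (adjusted p = 0.926).

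The other V1 subunits tested, Atp6v1b2, Atp6v1c1, Atp6v1d, Atp6v1e1, Atp6v1f, Atp6v1g1 and Atp6v1h, did not pass in any comparison. Atp6v1b2, the B subunit that alternates with A in the catalytic ring, ranged from 103 to 187 CPM over the libraries and these 2 were both in wild-type saline. Atp6v1f and Atp6v1g1 ranged from 53.1 to 92.8 and from 39.8 to 90.9 CPM, Atp6v1c1 from 17.1 to 33.7 and Atp6v1h from 25.4 to 48.4. Atp6v1d and Atp6v1e1 had the widest spread of the members above 10 CPM. Atp6v1d stood at 58.5 and 192 CPM in the 2 wild-type saline libraries, and Atp6v1e1 at 90.3, 118 and 325 CPM in wild-type IL-4.

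In the V0 sector, Atp6v0b, a proteolipid of the proton-carrying ring, had 240 and 221 CPM in wild-type saline, 207, 200 and 161 in wild-type IL-4, 165 and 177 in knockout saline, and 156, 203 and 166 in knockout IL-4. The wild-type saline libraries were its highest, and the genotype difference after saline, -0.43 ± 0.23, did not pass (adjusted p = 0.359). Atp6v0a1, an isoform of the large subunit that forms the proton half-channels, had 31.9 and 22.3 CPM in wild-type saline, 14.97, 18.4 and 18.7 in wild-type IL-4, 16.1 and 12.1 in knockout saline, and 17.98, 35.7 and 26.8 in knockout IL-4. Its IL-4 libraries lay below saline in wild type and above saline in knockout. The interaction of 1.57 ± 0.44 did not pass (adjusted p = 0.0710). Of the fits without 1 library, it passed only without knockout IL-4 library 1 (adjusted p = 0.0247), the lowest of its group. Its differences between genotypes were -0.94 ± 0.34 after saline (adjusted p = 0.147) and 0.63 ± 0.28 after IL-4 (adjusted p = 0.313).

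Atp6ap1, an accessory protein of the pump, had 89.1 and 61.9 CPM in wild-type saline, 72.2, 55.5 and 55.3 in wild-type IL-4, 91.7 and 82.5 in knockout saline, and 41.1, 61.6 and 36.4 in knockout IL-4. All knockout IL-4 libraries were below the knockout saline ones, by 0.91 on the log2 scale (log2 -0.91 ± 0.27, adjusted p = 0.0509), just outside the threshold. It passed without knockout IL-4 library 2 (adjusted p = 0.0164) or wild-type saline library 1 (0.0453) or 2 (0.0448). Atp6v0d1 ranged from 36.9 to 89.3 CPM and Atp6v0e from 97.1 to 155 CPM. Atp6v0c, the main proteolipid of the ring, had only 172 reads over all libraries, with 2 to 53 in each. Whether pseudogene copies share its reads was not tested. Atp6v0d2, an isoform of macrophages and osteoclasts, had 47 reads: 0 and 0 in wild-type saline, 14, 0 and 11 in wild-type IL-4, 2 and 0 in knockout saline, and 2, 0 and 18 in knockout IL-4. Such counts carry no fold change.

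**Figure D5:**
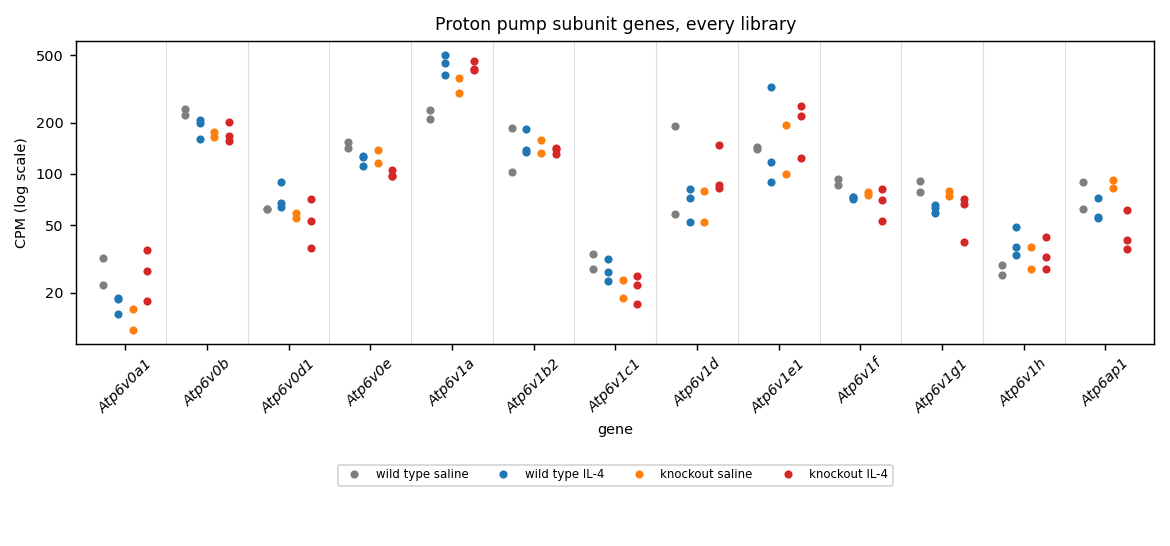
CPM on a log scale (y axis) of the 13 pump subunit genes above 10 CPM (x axis), with 1 point per library coloured by group. The IL-4 points of Atp6v1a lie above its saline points in both genotypes, and the points of Atp6v1d and Atp6v1e1 are the most widely spread.

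The 3 factors of the TFEB family did not pass in any comparison. Tfe3, the most abundant of them in CPM and per length, had 75.9 and 75.3 CPM in wild-type saline, 73.8, 84.4 and 81.6 in wild-type IL-4, 208 and 66.6 in knockout saline, and 99.3, 95.2 and 115 in knockout IL-4. The 2 knockout saline libraries lay on either side of wild type, and the difference after saline did not pass (log2 0.86 ± 0.38, adjusted p = 0.242). It was -0.18 without knockout saline library 1 and passed at 1.46 without library 2 (adjusted p = 0.0136). Its knockout IL-4 libraries all lay above the wild-type IL-4 ones (log2 0.37 ± 0.30, adjusted p = 0.615). Mitf had 21.8 and 39.1 CPM in wild-type saline, 39.8, 47.7 and 51.7 in wild-type IL-4, 34.5 and 26.7 in knockout saline, and 33.9, 81.9 and 90.6 in knockout IL-4. Knockout IL-4 library 1 lay within the range of the saline libraries and the other 2 knockout IL-4 libraries were the highest of all (log2 1.17 ± 0.38, adjusted p = 0.0764). Of the fits without 1 library, this difference passed only without knockout IL-4 library 1 (adjusted p = 0.00697), which drops the library that disagreed.

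Tfeb itself was the lowest of the 3 in CPM, with 10.5 and 11.1 CPM in wild-type saline, 8.29, 7.65 and 5.77 in wild-type IL-4, 11.7 and 10.9 in knockout saline, and 8.84, 5.76 and 4.17 in knockout IL-4. All IL-4 libraries were below all saline libraries, and the difference did not pass in wild type (log2 -0.58 ± 0.35, adjusted p = 0.376) or knockout (log2 -0.86 ± 0.35, adjusted p = 0.158). Sqstm1 encodes p62, which links ubiquitinated cargo to autophagosomes. It had 57.1 and 68.9 CPM in wild-type saline, 87.8, 59.7 and 64.4 in wild-type IL-4, 79.0 and 55.3 in knockout saline, and 70.7, 130 and 91.0 in knockout IL-4. The groups overlapped in each pairwise comparison, with adjusted p from 0.290 for IL-4 in knockout to 0.923 between genotypes after saline. Messenger RNA does not show where these factors are in the cell, through which they are known to be controlled.

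Other genes of the lysosomal pathway, on lists that hold no member, are given with the share called, to be read beside the shares of all genes above (0.827% and 4.14% between genotypes after IL-4 and saline, 6.06% and 7.6% for IL-4 in wild type and knockout). Of 31 further hydrolases and activators, 0 passed between genotypes after IL-4 and 1 after saline (3.23%), while IL-4 raised 2 and lowered 2 in wild type (12.9%) and lowered 3 in knockout (9.68%). Acp5, tartrate-resistant acid phosphatase, rose in knockout saline, to 22.6 ± 6.53 CPM (SD, n = 2) from 3.03 ± 0.68 CPM (SD, n = 2) in wild type (log2 2.89 ± 0.45, adjusted p = 0.00153). It was 5.50 ± 2.13 CPM (SD, n = 3) in knockout IL-4 and 7.49 ± 1.42 CPM (SD, n = 3) in wild-type IL-4, with an interaction of -3.33 ± 0.57 (adjusted p = 0.00438). Its high group is also the one with the highest B cell and mast cell marker sums. Dpp7, a dipeptidyl peptidase, fell with IL-4 in wild type (log2 -1.41 ± 0.30, adjusted p = 0.0123) and knockout (log2 -1.99 ± 0.30, adjusted p = 8.32e-04). The wild-type call was lost without wild-type saline library 2 (adjusted p = 0.0786) or wild-type IL-4 library 2 (0.0577).

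Of 21 further membrane proteins tested, 1 passed between genotypes after saline (4.76%), Slc38a9, higher in knockout. For IL-4, Cd63 passed in wild type (4.76%), and Cd63 and Slc29a3, the latter higher, passed in knockout (9.52%). The calls of Slc38a9 and Slc29a3 did not hold in every alternative fit. Cd63, a tetraspanin of late endosomes and lysosomes, was the 1 that passed between genotypes after IL-4 (4.76%). It averaged 114 ± 30.0 CPM (SD, n = 2) in wild-type saline, 38.4 ± 12.4 (SD, n = 3) in wild-type IL-4, 133 ± 19.2 (SD, n = 2) in knockout saline and 12.3 ± 2.19 (SD, n = 3) in knockout IL-4. It fell with IL-4 in knockout (log2 -3.44 ± 0.30, adjusted p = 6.1e-06), a call kept in every alternative fit, and in wild type (log2 -1.57 ± 0.28, adjusted p = 0.00430), a call lost without wild-type saline library 2 (adjusted p = 0.0548). Its interaction was -1.86 ± 0.41 (adjusted p = 0.0211), which was lost without knockout saline library 1 (0.0931), wild-type saline library 1 (0.0813) or wild-type IL-4 library 1 (0.0614). The genotype difference after IL-4, -1.64 ± 0.27 (adjusted p = 0.00794), was lost without wild-type IL-4 library 1 (0.0774).

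Among 6 protease inhibitors tested, 3 passed for IL-4 in wild type (50%), Cst7 higher and Cst3 and Serpinb1a lower, and 1 in knockout (16.7%). Between genotypes, 0 passed after IL-4 and 1 after saline (16.7%). This was Serpinb1a, lower in knockout (log2 -0.92 ± 0.23, adjusted p = 0.0377), a call that did not hold in every alternative fit. Cst3, the cystatin that blocks cysteine cathepsins, was 4262 ± 384 CPM (SD, n = 2) in wild-type saline, 1550 ± 48.4 (SD, n = 3) in wild-type IL-4, 3316 ± 155 (SD, n = 2) in knockout saline and 1824 ± 501 (SD, n = 3) in knockout IL-4. It fell with IL-4 in wild type (log2 -1.46 ± 0.22, adjusted p = 0.00120) in every alternative fit. In knockout it fell by 0.86 on the log2 scale (log2 -0.86 ± 0.22, adjusted p = 0.0238), a call lost without knockout saline library 1 (0.0994) or 2 (0.160), without knockout IL-4 library 3 (0.0589) and from the knockout groups alone (0.0758). Cst7, another cystatin, which passed for IL-4 in wild type, had 3 and 0 reads in wild-type saline, 70, 61 and 33 in wild-type IL-4, 0 and 10 in knockout saline, and 35, 41 and 25 in knockout IL-4. That call was lost without wild-type saline library 2 (adjusted p = 0.128) or wild-type IL-4 library 1 (0.0637) or 2 (0.0511). Of 20 genes that carry hydrolases to the lysosome, IL-4 raised 3 in wild type (15%), Lman1, Igf2r and Sort1, each lost without 1 or more of the wild-type saline libraries. In knockout 2 passed (10%), Gga2 lower and Igf2r, the receptor for mannose 6-phosphate, higher (log2 1.08 ± 0.31, adjusted p = 0.0471). That call of Igf2r was lost in 9 of the 10 fits without 1 library, with adjusted p up to 0.287 without knockout saline library 2. Gga2, an adaptor of that route, was higher in knockout saline (log2 2.30 ± 0.39, adjusted p = 0.00276) and fell with IL-4 in knockout (log2 -1.89 ± 0.34, adjusted p = 0.00273). Its interaction of -2.70 ± 0.49 also passed (adjusted p = 0.00647). Gga2 averaged 8.53 ± 3.70 CPM (SD, n = 2) in wild-type saline and 14.8 ± 4.80 (SD, n = 3) in wild-type IL-4. In knockout it averaged 42.0 ± 6.43 (SD, n = 2) after saline and 11.3 ± 2.86 (SD, n = 3) after IL-4. As for Acp5, the high group is the one with the highest B cell and mast cell marker sums, and their part was not tested. The 23 autophagosome genes tested had 0 calls between genotypes after IL-4 and 1 in each other pairwise comparison (4.35%). These were Atg12, lower in knockout saline, Atg3, lower with IL-4 in wild type, and Wipi1, higher with IL-4 in knockout. None of these calls held in every alternative fit. Of 4 further pump subunits tested, 0 passed in any comparison. Of 18 genes that control TFEB at the lysosome, Lamtor2 passed (5.56%), lower with IL-4 in wild type. It was lost without wild-type saline library 1 (adjusted p = 0.0715) or 2 (0.0651), or wild-type IL-4 library 2 (0.0658).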

How the data were processed

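The authors deposited raw read counts per gene and library. Per the submitters' processing notes, the tools were STAR and HTSeq and the genome build was mm10; versions, annotation and strand setting are not given in the sources used here. Counts were used as deposited, with the library totals given with the report. Symbols and positions came from GENCODE M21.

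Counts were tested with edgeR 4.0.16 in R 4.3.3: TMM, filterByExpr (minimum count 10, minimum total 15), and a robust quasi-likelihood fit of 4 group means (6 residual degrees of freedom, common biological coefficient of variation 28.4%). Tests were two-sided, with Benjamini-Hochberg adjustment over 11614 genes. Values after log2 carry the standard error.

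Alternatives were DESeq2 1.42.0 size factors or its test, library totals, no filter, the replicate number as a block, only the groups compared, and each library left out. The labels do not say whether libraries with the same replicate number belong together, and the main fit used no pairing. Promoter sequences were read from RefSeq windows; 2 further motifs were also searched and are not reported here.

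Members and lists were chosen with earlier results of these data known. Members are given in full if they passed the test, had the smallest p of their class in a comparison, or were among the 2 highest of their class in CPM, and otherwise by range. From the other lists up to 4 genes past the threshold in a comparison were eligible; those given were chosen among them after their values were seen. Ctsl is a further member given in full after its values were seen. The fits were tested on simulated data. The level of the targeted gene is not reported here.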

Additional observations from a re-analysis of the deposited data

Results flagged for a closer look

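The IL-4 effect on Ctse differed between genotypes by the test of the difference itself, at 2.44 on the log2 scale (interaction term of edgeR's quasi-likelihood fit, adjusted p = 0.00277). All 3 knockout IL-4 libraries lay above both knockout saline libraries, while the wild-type IL-4 libraries lay between the 2 wild-type saline libraries. With 2 or 3 libraries in a group, single libraries were not screened as outliers.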

How the results depend on the processing

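Of the 9 calls of members, 2 held in every fit, those of Ctse for IL-4 in knockout and for the interaction. Leaving out 1 library at a time, the number of members called ranged from 0 to 1 between genotypes after IL-4 and after saline, from 1 to 3 for IL-4 in wild type, from 1 to 6 in knockout, and from 1 to 2 for the interaction. The median log2 over the members ranged from -0.157 to -0.0311 between genotypes after IL-4, from -0.0645 to 0.13 after saline, where its sign turned, from 0.0611 to 0.147 for IL-4 in wild type, from -0.0866 to 0.0678 for IL-4 in knockout and from -0.235 to -0.0083 for the interaction. Between genotypes after saline, 0 members were called with library totals, with the replicate block or from the groups compared alone, and 3 with no filter. For IL-4 in wild type the count was 5 with no filter and 4 by DESeq2. In knockout it was 7 with library totals, 8 with no filter, 8 by DESeq2, 2 with the replicate block and 2 from the groups compared alone. For the interaction it was 3 with no filter and 2 by DESeq2. DESeq2 called Lamp2, Mitf, Atp6ap1 and Lgmn for IL-4 in knockout beside the 4 genes of the edgeR fit, Psap and Ppt1 in wild type, and Atp6v0a1 for the interaction. Library totals moved the median of all genes to 0.13 after saline, to -0.11 (log2 -0.105) for IL-4 in knockout and to -0.17 for the interaction, and that of the members to 0.19 after saline and -0.31 for the interaction. Over all genes, calls higher and lower between genotypes after saline were 303 and 178, or 421 and 110 with library totals; for IL-4 in wild type 379 and 325, or 481 and 256; in knockout 475 and 408, or 386 and 532; and for the interaction 119 and 207, or 92 and 275. Between genotypes after IL-4 there were 41 and 55, but 290 and 215 with no filter and 195 and 190 by DESeq2. Between genotypes after saline there were 454 and 580 with no filter and 480 and 361 by DESeq2. For IL-4 in wild type these were 563 and 646, and 647 and 497; in knockout 861 and 562 with no filter; for the interaction 487 and 332, and 273 and 321. Without 1 library the calls over all genes ranged from 21 to 129 between genotypes after IL-4 (lowest without wild-type IL-4 library 1), 208 to 550 after saline, 302 to 764 for IL-4 in wild type, 327 to 931 in knockout and 182 to 397 for the interaction. The replicate block gave 267 and 207 for IL-4 in wild type and 296 and 258 in knockout. Same-numbered libraries had correlations of -0.136 to 0.0771, and 0 of 6 IL-4 libraries correlated best with their own number. The labels tie the numbers to nothing. No pairing was seen, but groups of 2 or 3 libraries cannot exclude it. With the block, the calls of Ctse after saline (adjusted p = 0.0553), of Lipa (0.0608), Gla (0.0518) and Cst3 (0.0636) for IL-4 in knockout, and of Lamtor2 for IL-4 in wild type (0.0504) did not pass.

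Signs turned only for differences that had not passed. Leaving out 1 library at a time, the log2 value between genotypes after IL-4 ranged from -0.122 to 0.182 for Lipa and from -0.164 to 0.043 for Atp6v1a. After saline it ranged from -0.18 to 1.46 for Tfe3, from -0.188 to 0.324 for Sqstm1 (-0.028 without wild-type saline library 1) and from -0.578 to 0.057 for Gla. For IL-4 in wild type it ranged from -0.16 to 0.416 for Ctse and from -0.0218 to 0.304 for Sqstm1, and for the interaction from -0.401 to 0.0603 for Lipa. The cause of these changes was not tested. With 2 saline libraries per genotype, fits without one of them rest on a lone library assumed to vary like the other groups, and low genes such as Gla, Tfeb, Mcoln1 and Atp6v0d2 are limited by their read numbers.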
